A study of Mus musculus with 68 samples.

Results

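Calcium that enters a neuron is read by calmodulin, a small protein with EF-hand calcium-binding loops that changes shape when it is loaded and then activates other proteins. CaMKII, the calcium/calmodulin-dependent kinase II, and calcineurin, the calcium/calmodulin-dependent phosphatase, are its best known opposing targets in neurons, the first adding and the other removing phosphate groups. In dopamine neurons calmodulin is also bound permanently to the SK channels, the small-conductance calcium-activated potassium channels that slow pacemaker firing. The genes described here were the calmodulin genes Calm2 and Calm3, the 4 CaMKII genes Camk2a, Camk2b, Camk2d and Camk2g, the calcineurin catalytic genes Ppp3ca and Ppp3cb, and the calcineurin regulatory gene Ppp3r1. They were chosen by name, by a gene symbol equal to that of a member, and all 9 were found among the 36172 genes of the table.

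Expression was measured by Patch-seq, in which the contents of 1 cell are drawn into the recording pipette after electrophysiology and sequenced. The cells were dopamine neurons of the ventral tegmental area from 12-month-old mice, 33 cells from 3xTg mice and 35 cells from WT mice, with both sexes mixed. The alleles carried by the 3xTg mice, all homozygous, included human APP with the Swedish mutation and human Tau P301L, and the WT mice were kept as a line of their own, of the same mixed C57BL/6 and 129 background, that carries no transgene. The labels name no treatment. The labels name no mouse for any cell, so cells of 1 genotype may share an animal and each genotype was taken as 1 sample. No test, p-value or standard error is therefore given, and every difference describes these cells.

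Summed over all genes, the cells held between 676556 and 1678624 counts in 3xTg and between 492505 and 1327367 in WT. The median number of genes with a count of at least 1 was 8511 in 3xTg and 7476 in WT. Th, Slc6a3, Slc18a2 and Ddc, which make, take up and package dopamine, had a count in all 68 cells, although the authors had kept cells partly by the first 3 of these genes. The endothelial markers Cldn5 and Pecam1 had no count in any cell, nor had the astrocyte marker Aldh1l1, by whose absence the authors had also chosen cells. The other astrocyte markers were present in some, with Slc1a3 in 5 3xTg and 8 WT cells and Aqp4 and Gfap in 1 and 2 each. The summed level of 4 astrocyte markers was above 0 in 7 3xTg and 11 WT cells and reached 272 CPM (counts scaled to the same total in every cell) in 3xTg and 2410 in WT. A count of at least 1 of the marker genes Pvalb, Tmem119, P2ry12 or Aldh1l1 was present in 5 cells of each genotype. The summed level of 4 microglial markers had a median of 24.3 CPM in 3xTg and 23.7 in WT but reached 3294 and 2329 CPM in the highest cells, and that of 4 oligodendrocyte markers reached 555 CPM in 3xTg and 2537 in WT. Of these 12 glial markers 8 were lower in the 3xTg sums, 3 were higher and Aldh1l1 was at 0 in both genotypes. The widest gaps in CPM were those of the microglial C1qb at 76.2 CPM in 3xTg and 321 in WT, the oligodendrocyte Mbp at 76.3 and 257 and the astrocyte Slc1a3 at 11.7 and 130. The 3 that were higher in 3xTg were the microglial Cx3cr1, found in 29 3xTg and 30 WT cells at 14.2 and 11.8 CPM, the astrocyte Gfap at 1.53 and 0.91 and the oligodendrocyte Mog at 1.47 and 0. The dopamine genes Th, Slc6a3 and Slc18a2 were higher in 3xTg, with log2 ratios of 0.32, 0.38 and 0.43, within the range of the 9 members. The part of these differences in those of the members was not tested.

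The label numbers of the cells fall into runs that alternate between the genotypes, WT 1 to 22, 3xTg 24 to 55, WT 57 to 74 and 3xTg 76 to 92, with 3 further WT cells above these. What the numbers stand for is not stated in the sources used here. They held 17, 21, 15 and 12 cells. The median number of genes detected was 5233 in the lower WT run, 7648 in the lower 3xTg run, 8441 in the upper WT run and 9308 in the upper 3xTg run. WT 1 to 22 and 3xTg 24 to 55 are called the lower runs, and WT 57 to 74 and 3xTg 76 to 92 the upper runs. Since cells of 1 genotype differed from run to run, genotype differences within each pair of runs are given for every member beside those over all cells.

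The proteins encoded by Calm2 and Calm3 were identical in the reference transcripts, while their coding sequences were not. Coding sequence made up 37.3% of the reference transcript of Calm2 and 19.7% of that of Calm3, and the rest was untranslated. Calm2 lies on mm10 at chr17:87433401-87446935 on the minus strand and Calm3 at chr7:16915379-16924032 on the minus strand. Their coding sequences, 450 bases each in the GENCODE M21 annotation of the same assembly, shared 372 bases and differed at 78. Of the differences, 74 were at the last base of a codon and 4 at the first. The longest stretch of identical sequence was 17 bases. Codons 74 to 89 are shown because they hold, in capitals, the codons for threonine 79 and serine 81 of the mature protein, counted without the first methionine, which casein kinase 2 is known to phosphorylate:
Calm2: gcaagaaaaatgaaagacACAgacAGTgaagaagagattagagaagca
Calm3: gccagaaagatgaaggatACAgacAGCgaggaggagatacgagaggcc
Across these 48 bases 11 differed, with the same threonine codon in both genes and serine codons that differed in the last base. Over the full Calm2 transcript, 1.88% of 90-base windows also occurred in another annotated gene (Gm7308), and over that of Calm3 0.591% (Gm5881).

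The 4 CaMKII genes were more diverged, with pairwise identities of 76.7% to 79.8% over the aligned coding bases, and none shared a 90-base window with another gene. The stretch around the autophosphorylated threonine, whose phosphorylation keeps the kinase active after calcium has fallen, is shown for 3 of them with that codon in capitals, since it is a place where the proteins are alike and the transcripts can still be told apart:
Camk2b: atgcacagacaggagACTgtggaatgt
Camk2d: atgcacaggcaggagACTgtagactgc
Camk2g: atgcatcgccaagagACGgtagagtgc
Camk2b lies at chr11:5969666-6065748, Camk2d at chr3:126596973-126845054 and Camk2g at chr14:20734875-20794088. The calcineurin catalytic genes Ppp3ca, at chr3:136670770-136935779, and Ppp3cb, at chr14:20499314-20546573, shared 74.3% of their aligned coding bases and no 90-base window. Ppp3r1, at chr11:17159298-17200380, shared 13.5% of its windows with Wdr92, which limits how far its counts can be assigned. The counts were estimates rather than whole numbers in all cells for Calm2 and in 46.7% to 84.8% of the cells with a count for the other members.

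Calmodulin transcripts were by far the most abundant of the set. In CPM per kilobase of annotated exons, Calm2 stood at 2004 in 3xTg and 1568 in WT and Calm3 at 276 and 241. Ppp3r1 followed at 95.2 and 90.3, Camk2b at 29.2 and 33.2 and Camk2g at 19.4 and 27.3. Ppp3ca reached 16.8 in both genotypes, Camk2a 16.2 and 10.9, Camk2d 14 and 10.7, and Ppp3cb was lowest at 6.23 and 6.78. Calm2 lay above 99.7% of the expressed genes in both genotypes and Calm3 above 92.3% or more, whereas the 4 CaMKII genes lay between the 28.2 and 55.1 percentiles. With the length of 1 reference transcript in place of all annotated exons, levels of several genes rose, with Ppp3ca at 36.7 in 3xTg, Camk2a at 28.2 and Camk2d at 22.1, and the order of the 9 genes was the same. The steps between Camk2b, Camk2g, Ppp3ca, Camk2a and Camk2d were small beside the spread over cells.

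**Figure D1:**
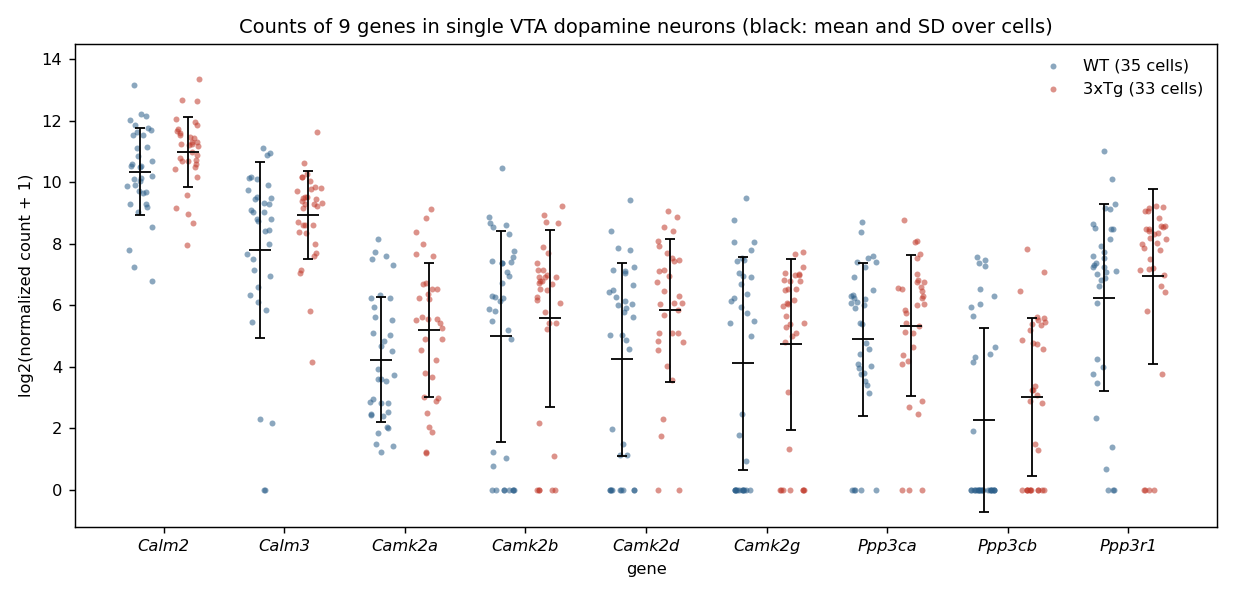
Each point is 1 cell, with log2(normalized count + 1) on the vertical axis for the 9 genes in WT (blue, 35 cells) and 3xTg (red, 33 cells), and black marks give the mean and SD over cells. Calm2 and Calm3 lie highest, points at 0 are cells without a count, and the genotypes overlap for every gene.

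Differences between the genotypes were measured in 2 ways. One was the difference, 3xTg minus WT, in log2(normalized count + 1) averaged over cells, where counts had been divided by size factors. On this scale the median expressed gene lay at 0.47, so most genes were higher in 3xTg. The other was the log2 ratio of the counts summed over the cells of a genotype, each as CPM of all counts of that genotype, on which the median expressed gene lay at -0.03. A gene was called expressed if its normalized count reached 1 in 80% or more of the cells from either genotype, which 3988 genes and 7 of the 9 members did. Camk2g and Ppp3cb did not pass, and their values are given all the same. Intervals on counts and shares are exact 95% intervals that cover counting error only.

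By the summed counts, no member differed by 1.5-fold or more in either direction, against 9.88% of the expressed genes that were at least 1.5-fold higher in 3xTg and 13% that were at least 1.5-fold lower. By the mean over cells relative to the median gene, Calm3 and Camk2d were at least 1.5-fold higher, 2 of 9 members, where 25.9% of the expressed genes were, and no member was 1.5-fold lower, where 23.9% were. The share of members that were higher by the mean was thus near the background. The median over the 9 members was 0.70 by the mean over cells, with 0.47 for the median expressed gene, and 0.08 by the summed counts. All 9 members were above 0 by the mean over cells, as 70.9% of the expressed genes were, and 6 of 9 by the summed counts, as 47.9% were.

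**Figure D2:**
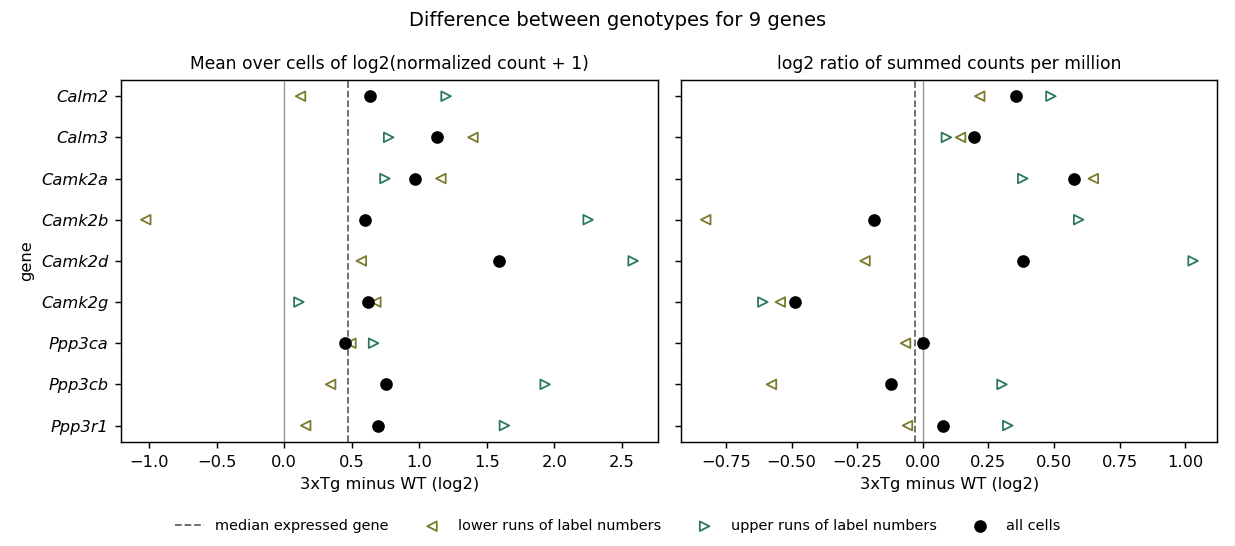
Horizontal axes give the log2 difference between 3xTg and WT by the mean over cells (left) and by summed counts (right) for the 9 genes, over all cells (filled), within the lower runs of label numbers (left-pointing) and within the upper runs (right-pointing), with the median expressed gene dashed. Camk2b lies on opposite sides of 0 in the 2 pairs of runs, while Calm2, Calm3 and Camk2a lie above 0 in both panels and both pairs.

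Calm2, which gave most of the calmodulin counts, was present in every cell. Its normalized counts ran from 247 to 10466 with a median of 2386 in 3xTg, and from 110 to 9155 with a median of 1451 in WT. The 2 ranges overlapped almost completely, and the WT cells reached lower. The mean of log2(normalized count + 1) was 10.98 ± 1.15 (SD over 33 cells) in 3xTg and 10.35 ± 1.42 (SD over 35 cells) in WT, a difference of 0.63, or 0.16 beyond the median gene. The summed counts were 2415 CPM (2399 to 2431) and 1889 CPM (1874 to 1904), a 1.28-fold higher level in 3xTg that lay outside counting error. Leaving out any 1 cell kept the log2 ratio of 0.35 between 0.28 and 0.42. The ratio was 0.22 between the lower runs and 0.49 between the upper, and the mean difference 0.12 and 1.2. Set against the median gene within each pair of runs, the mean difference turned from -0.27 in the lower runs to 0.60 in the upper.

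Calm3 had a count in all 33 3xTg cells and in 33 of 35 WT cells. Its normalized counts ran from 16.9 to 3190 with a median of 631 in 3xTg and from 0 to 2231 with a median of 445 in WT. The mean difference was 1.13, the summed level only 1.15-fold higher in 3xTg, at 633 CPM (625 to 641) against 552 CPM (545 to 560). The mean of log values weighs cells with few counts more than the sum does. WT held 2 cells without a count and 2 with fewer than 10 counts, and 3xTg held none of either. Among cells with a count the mean difference was 0.66. Between the lower runs, which held both WT cells without a count, it was 1.40, and between the upper 0.77, with log2 ratios of the sums of 0.14 and 0.09. Relative to the median gene the difference was 0.66, just past the 1.5-fold line, and leaving out any one of 5 cells (3xTg 26 or WT 2, 6, 11 or 17) took it below. It stood at 1.01 in the lower runs and at 0.17 in the upper. It was also below the line after thinning of all cells to 1 total, at 0.33, over the cells with a count, at 0.48, by medians over cells, at 0.16, without the 10 cells that held another type's marker, at 0.45, and with a pseudocount of 10, at 0.58. The log2 ratio of the sums, 0.20 over all cells, was 0.11 without those 10 cells.

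Calm2 thus dominated the pair in both genotypes. It gave 79.2% (79 to 79.5) of the Calm2 and Calm3 counts in 3xTg and 77.4% (77.1 to 77.7) in WT, a difference of 1.87 percentage points. That difference was 0.53 without 3xTg cell 24, 0.89 in the lower runs and 4.48 in the upper. In single cells this share ran from 51.3% to 99.8% in 3xTg and from 35.1% to 100% in WT, with medians of 79.2% and 79.8%, and its mean differed by -0.06 percentage points. Per kilobase Calm2 was the higher of the 2 genes in all 68 cells. The summed pair stood at 3048 CPM in 3xTg and 2441 CPM in WT, a log2 ratio of 0.32.

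Camk2a encodes the alpha subunit, the form most abundant in forebrain excitatory neurons. It had a count in all 68 cells, but from 1 to 521 counts per cell. Its normalized counts ran from 1.32 to 567 with a median of 44.9 in 3xTg and from 1.32 to 283 with a median of 12.3 in WT. At least 10 counts were present in 24 of 33 3xTg cells (72.7%, 54.5 to 86.7) and 20 of 35 WT cells (57.1%, 39.4 to 73.7). The mean over cells was higher in 3xTg by 0.97. The summed level was 91.5 CPM (88.5 to 94.7) in 3xTg and 61.4 CPM (58.8 to 64.1) in WT, a 1.49-fold higher level and a log2 ratio of 0.58, the highest of the 9 members. Single cells moved it both ways. Without 3xTg cell 89, which held 15.5% of the 3xTg counts, the log2 ratio was 0.39. Without WT cell 21, which held 21.2% of the WT counts and had no count of Pvalb, Tmem119, P2ry12 or Aldh1l1, it was 0.88, and without the 10 cells that did have a count of one of these markers it was 0.91, past 1.5-fold in both cases. With sums of normalized in place of raw counts it was 0.86. The ratio lay so near the 1.5-fold line that leaving out any one of 28 cells carried it over. Between the lower runs the ratio was 0.65 and the mean difference 1.16, and between the upper 0.38 and 0.75.

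Camk2b encodes the beta subunit, which binds actin filaments. Normalized counts ran from 0 to 602 with a median of 102 in 3xTg and from 0 to 1406 with a median of 75.2 in WT, and 28 of 33 and 27 of 35 cells had a count. The summed level was lower in 3xTg, at 129 CPM (126 to 133) against 147 CPM (143 to 151), while the mean over cells was higher by 0.60. That mean difference was 0.12 among cells with a count, and 0.04 when genes detected per cell entered a straight-line fit. The highest WT cell, number 11, held 13.9% of the WT counts, and without it the log2 ratio of the sums moved from -0.19 to -0.00. Its direction also differed between the runs. The mean difference was -1.03 between the lower runs and 2.25 between the upper, with log2 ratios of the sums of -0.83 and 0.59. From the lower to the upper run the mean of Camk2b changed by -1.41 in WT and by 1.87 in 3xTg, where the median gene changed by 0.49 and 0.46.

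Camk2d, the delta subunit best known from heart muscle, had the largest mean difference of the members. Normalized counts ran from 0 to 533 with a median of 66.7 in 3xTg and from 0 to 682 with a median of 48.7 in WT. The mean over cells was higher in 3xTg by 1.59, or by 1.12 beyond the median gene, a difference greater than that of 89.9% of the expressed genes. Camk2d was counted in 31 of 33 3xTg cells (93.9%, 79.8 to 99.3) and 26 of 35 WT cells (74.3%, 56.7 to 87.5), and among cells with a count the mean difference was 0.50. When every cell was thinned to 700471 counts, leaving out 2 3xTg and 5 WT cells, a count remained in 29 of 31 and 22 of 30 cells. The summed level was 119 CPM (116 to 123) in 3xTg and 91.4 CPM (88.3 to 94.7) in WT, 1.30-fold higher. Its mean difference was 0.57 in the lower and 2.58 in the upper runs, and the log2 ratio of the sums -0.22 and 1.03. Relative to the median gene the mean difference was 0.18 in the lower runs and 1.98 in the upper. It fell short of the 1.5-fold line in the lower runs, over the cells with a count, at 0.31, and by medians over cells, at 0.11.

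Camk2g, the gamma subunit, went the other way by its sums. The level was 74.2 CPM (71.5 to 77.1) in 3xTg and 104 CPM (101 to 108) in WT, 1.40-fold higher in WT, with a log2 ratio of -0.49 that was -0.54 between the lower runs and -0.61 between the upper. WT cell 57 held 16.9% of the WT counts, and without it the ratio was -0.26. With sums of normalized counts it was -0.63, past 1.5-fold lower in 3xTg. Camk2g was counted in 26 of the 33 3xTg and 23 of the 35 WT cells. With the cells at 0 included the mean over cells was higher in 3xTg by 0.62, and by 0.68 and 0.11 within the lower and the upper runs. Among cells with a count it was lower in 3xTg, by -0.25, and when genes detected per cell entered a straight-line fit the difference was -0.38. The medians of the normalized counts were 62.8 and 44.2, and the highest cells held 214 and 725. WT thus had both more cells without a count and the cells with the most counts.

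**Figure D3:**
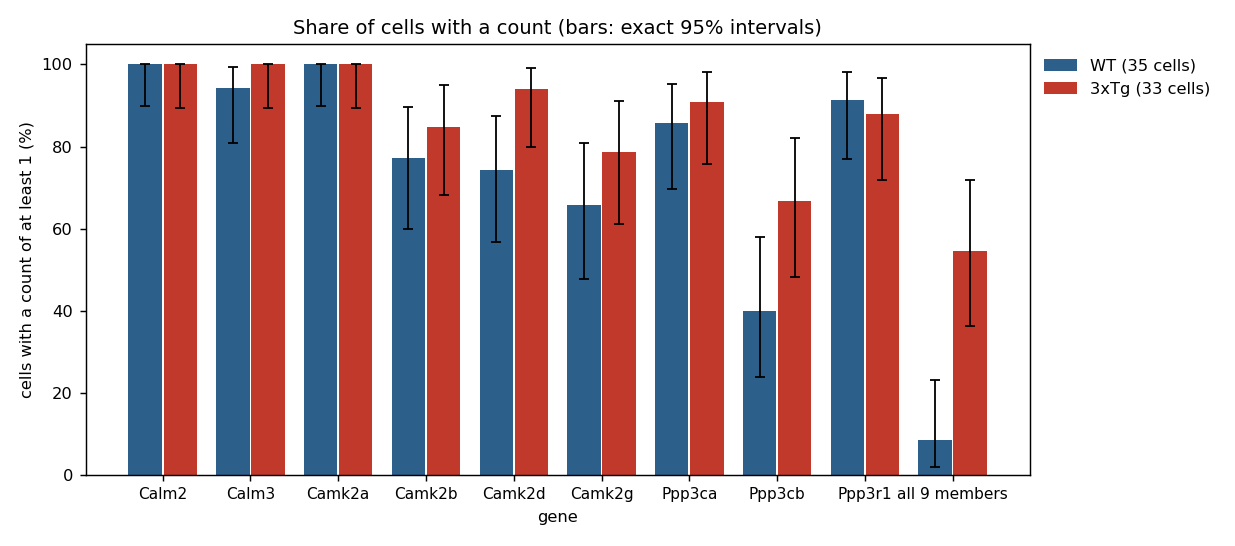
Bars give the percentage of cells with a count of at least 1 for each gene and for all 9 genes together, in WT (blue) and 3xTg (red), with exact 95% intervals. Calm2 and Camk2a reach 100% in both genotypes, and the share of cells with a count of all 9 genes is 54.5% in 3xTg and 8.57% in WT. Ppp3cb, the gene found in the fewest cells, is at 66.7% and 40%.

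Summed over its 4 genes, CaMKII differed little between the genotypes, at 414 CPM in 3xTg and 404 CPM in WT, a log2 ratio of 0.04, while the makeup of the sum differed. Camk2b gave the largest share in both genotypes, with 31.2% (30.5 to 32) in 3xTg and 36.4% (35.6 to 37.2) in WT. Camk2a gave 22.1% (21.4 to 22.8) and 15.2% (14.6 to 15.8), and Camk2d 28.8% (28 to 29.5) and 22.6% (21.9 to 23.3). Camk2g gave 17.9% (17.3 to 18.5) in 3xTg and 25.7% (25 to 26.5) in WT. So Camk2a and Camk2d took larger parts, and Camk2b and Camk2g smaller parts, of the 3xTg counts. Each difference was beyond counting error, which does not cover the spread between cells. Leaving out single cells moved these differences in the sums without turning them. The Camk2b difference of -5.20 percentage points was -1.82 without WT cell 11, and the Camk2g difference of -7.83 was -4.50 without WT cell 57. With any 1 cell left out, the Camk2a difference of 6.90 lay between 4.99 and 9.18 and the Camk2d difference of 6.12 between 4.91 and 7.99.

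Between the WT runs the makeup differed as widely as between the genotypes. Camk2b held 44.1% of the counts in the lower WT run and 25.4% in the upper, and Camk2g 19.8% and 35.5%. The 3xTg runs were closer to each other, with 32% and 30.3% for Camk2b and 17.5% and 18.4% for Camk2g. Camk2a was at 11.4% in the lower WT run and 20.4% in the upper, the latter close to the 21% of the upper 3xTg run. The larger Camk2d share and the smaller Camk2g share in 3xTg were present in both pairs of runs, and the difference for Camk2b changed direction between them. Averaged over single cells, the Camk2a share was 25.5% in 3xTg and 24.8% in WT, closer than the shares of the sums. By the median over cells 2 shares went against the sums. Camk2b was at 30.4% in 3xTg and 27.6% in WT, and Camk2d at 19.3% and 21.2%. The other 2 kept their direction, with Camk2a at 16.2% and 11.5% and Camk2g at 17.5% and 20%.

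**Figure D4:**
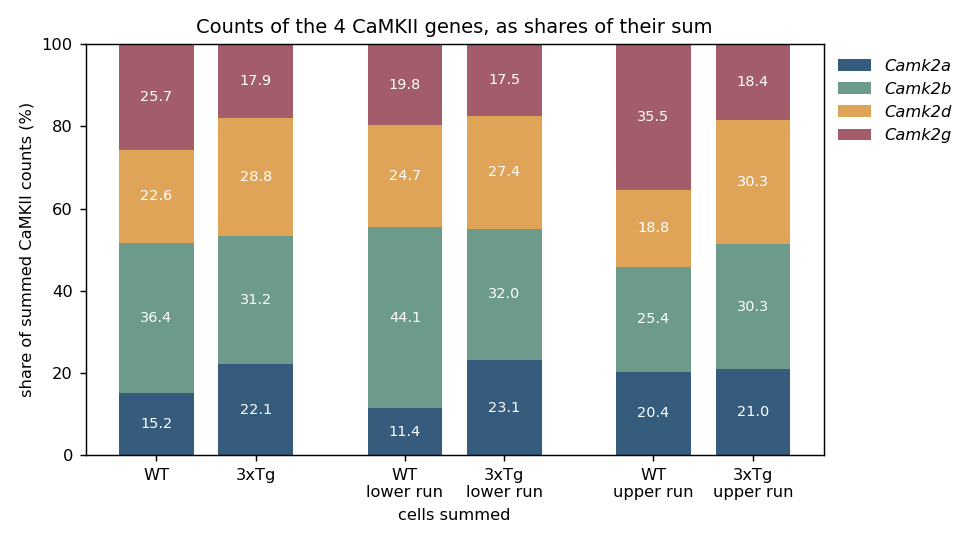
Stacked bars give the percentage of summed CaMKII counts from each of the 4 genes, over all cells and within the lower and the upper run of label numbers of each genotype. Camk2b falls from 44.1% to 25.4% between the WT runs and stays at 32% and 30.3% in the 3xTg runs.

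No single CaMKII gene was dominant in every cell. Per kilobase, Camk2b was the highest of the 4 in 15 of 33 3xTg cells and 16 of 35 WT cells, Camk2g in 7 and 9, Camk2a in 7 and 7 and Camk2d in 4 and 3. Counts of all 4 genes were present in 23 of 33 3xTg cells and 16 of 35 WT cells. Every cell had a count of at least 1 of them.

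Ppp3ca, which encodes the alpha catalytic subunit of calcineurin and is its main form in brain, had the same level in both genotypes by the sums. It stood at 80.5 CPM (77.6 to 83.4) in 3xTg and 80.4 CPM (77.4 to 83.5) in WT, with a log2 ratio of 0.00 that was -0.17 without 3xTg cell 35 and 0.17 without WT cell 18. Normalized counts ran from 0 to 435 with a median of 64.1 in 3xTg and from 0 to 414 with a median of 42.3 in WT, and 30 cells of each genotype had a count. The mean over cells differed by 0.45, or by -0.03 against the median gene, and by 0.49 and 0.66 within the lower and the upper runs, where the log2 ratios of the sums were -0.07 and 0.01. Of the 9 members Ppp3ca lay closest to the median gene by both measures.

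Ppp3cb, the beta catalytic subunit, was found in more 3xTg cells than WT cells at about the same summed level. A count was present in 22 of 33 3xTg cells (66.7%, 48.2 to 82) and 14 of 35 WT cells (40%, 23.9 to 57.9), and after thinning in 21 of 31 and 12 of 30. Normalized counts reached 227 in 3xTg and 191 in WT, with medians of 8.40 and 0. The summed level was 29.8 CPM (28.1 to 31.6) and 32.4 CPM (30.5 to 34.4), a log2 ratio of -0.12. It was -0.41 without 3xTg cell 29, which held 20.6% of the 3xTg counts, and 0.10 without WT cell 73, which held 17% of the WT counts. It was -0.58 between the lower runs and 0.30 between the upper. The mean over cells differed by 0.75, and by 0.34 and 1.93 within these runs. Among cells with a count it was the other way round, at -1.15, so the 3xTg cells that held Ppp3cb held less of it on average.

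Of the Ppp3ca and Ppp3cb counts, Ppp3ca gave 73% (71.6 to 74.3) in 3xTg and 71.3% (69.8 to 72.7) in WT. The direction of this difference of 1.72 percentage points was not stable. It was -1.40 without WT cell 73 and 5.87 without 3xTg cell 29. In the lower runs the share was 79.3% in 3xTg and 72.8% in WT, and in the upper runs 66.3% and 70.7%. Averaged over the 32 3xTg and 30 WT cells with a count of either gene it was 68.4% and 79.6%. Ppp3cc, the other catalytic gene, had 97 and 91 counts in all and is not in these shares. Ppp3ca and Ppp3cb summed to 110 CPM and 113 CPM, a log2 ratio of -0.03. Both genes had a count in 20 of 33 3xTg cells and 14 of 35 WT cells.

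Ppp3r1 encodes the regulatory B subunit, an EF-hand protein needed for a working phosphatase. Its normalized counts ran from 0 to 599.9 with a median of 260 in 3xTg and from 0 to 2085 with a median of 150 in WT, and 29 of 33 and 32 of 35 cells had a count. The summed level was 272 CPM (267 to 278) in 3xTg and 258 CPM (253 to 264) in WT, a log2 ratio of 0.08 that was 0.32 without WT cell 6, which held 18% of the WT counts. Without the cells that held another type's marker the ratio was -0.13. The mean difference was 0.70 over all cells, 0.16 between the lower runs and 1.63 between the upper, and the log2 ratio of the sums was -0.06 and 0.32 within them. Ppp3r1 and at least 1 catalytic gene were present together in 29 of 33 3xTg cells and 27 of 35 WT cells. Ppp3r1 was present without either catalytic gene in 5 WT cells and no 3xTg cell.

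The number of members found per cell was higher in 3xTg, with a median of 9 against 8 in WT. All 9 had a count in 18 of 33 3xTg cells (54.5%, 36.4 to 71.9) and 3 of 35 WT cells (8.57%, 1.80 to 23.1). These intervals cover counting of cells alone, and cells may share a mouse. The count was 17 of 31 and 3 of 30 after thinning, 8 of 21 and 1 of 17 between the lower runs, and 10 of 12 and 2 of 15 between the upper. With at least 10 counts required of each gene it was 11 of 33 and 2 of 35. The number of members per cell followed the number of genes detected, with a Spearman's rho of 0.76 over 68 cells that share the authors' processing, and genes detected were themselves higher in 3xTg. The part of the genes detected in this difference was not tested. At the other end, 3xTg cell 50 and WT cells 6 and 11 held 4 members each, with 4721, 3944 and 3770 genes detected.

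Across cells, Calm2 and Calm3 varied together more than any other pair of the 36, with a Spearman's rho of 0.64 over 68 cells. Ppp3r1 followed both calmodulin genes, with a rho of 0.49 with Calm3 and 0.42 with Calm2. Over all 36 pairs rho ran from -0.10 to 0.64 with a median of 0.16, where the median over all pairs of expressed genes was 0.05. The CaMKII genes were only weakly related to each other, from 0.04 for Camk2a with Camk2b to 0.28 for Camk2b with Camk2d, and in counts as sparse as these such values are no finding. All points share the normalization of their cell, and the part of depth in these correlations was not tested. With the number of genes detected removed, Calm2 with Calm3 stood at 0.55.

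Some pairs differed between the genotypes. Camk2d with Ppp3r1 had a rho of 0.54 in the 33 3xTg cells and -0.41 in the 35 WT cells, and Camk2b with Ppp3r1 0.58 and -0.16. Ppp3ca with Ppp3cb went the other way, at -0.20 in 3xTg and 0.47 in WT. Calm2 with Calm3, by contrast, was alike in both, at 0.63 and 0.61. The first 3 of these pairs had the widest gaps among the 36, and the gaps were not tested. Cells without a count enter these values. Ppp3r1 had no count in 4 3xTg and 3 WT cells, Camk2d in 2 and 9 and Camk2b in 5 and 8. Ppp3ca had none in 3 and 5 cells and Ppp3cb in 11 and 21. In counts as sparse as these such gaps are no finding.

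**Figure D5:**
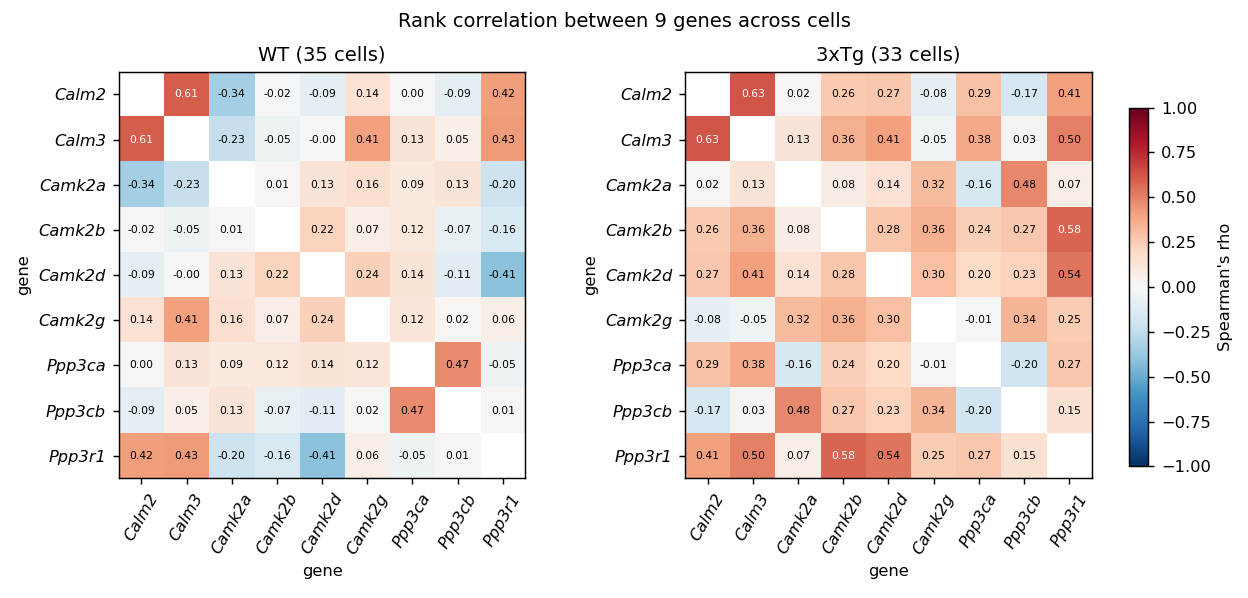
Squares give Spearman's rho between each pair of the 9 genes across the 35 WT cells (left) and the 33 3xTg cells (right), from -1 (blue) to 1 (red). The pair Calm2 and Calm3 is alike in both panels, whereas Ppp3r1 with Camk2b and Camk2d is positive in 3xTg and negative in WT.

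Outside the set, the expressed genes most like Calm2 across the 68 cells were Hsp90ab1, a cytosolic chaperone, with a rho of 0.91, and Ubb, a polyubiquitin gene, with 0.89. For Calm3 they were Atp5a1 and Cox6a1, which encode parts of the mitochondrial ATP synthase and of cytochrome c oxidase, with 0.85 and 0.82. For Ppp3r1 they were G3bp2 and Prepl, with 0.70 and 0.69. These values remained high with the number of genes detected removed and within each genotype, where the lowest was 0.58 for Ppp3r1 with G3bp2 in WT. For the other 6 members the closest gene reached 0.46 to 0.57.

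Of the expressed genes 9.88% were at least 1.5-fold higher in 3xTg by the summed counts and 13% at least 1.5-fold lower. Genes listed around these proteins are given beside those shares. Of 6 modulators that bind calmodulin, 4 were expressed and none differed by 1.5-fold. Among them were Gap43, a growth cone protein, at 1868 CPM in 3xTg and 1449 in WT, and Pcp4 at 298 and 239. Pcp4l1 had the lowest ratio, at 120 and 146 CPM, with log2 ratios of -0.02 and -0.77 in the lower and the upper runs. Of 10 genes of the calmodulin kinase cascade and CaMKII inhibitors, 4 were expressed and none differed by 1.5-fold, with Camk4, a nuclear kinase, at 187 and 216 CPM and Camk1 at 78.2 and 57.5, 2 genes whose log2 ratios changed sign between the lower and the upper runs, from 0.32 to -0.67 and from 1.28 to -0.80. Of the list of calcineurin subunits, regulators and NFAT family genes 5 were expressed. Of these only the transcription factor gene Nfat5 was at least 1.5-fold lower in 3xTg, with a log2 ratio of -0.69. Its ratio was -0.25 in the lower and -1.27 in the upper runs. Nfat5 was listed by family name, and no link to calcineurin is shown here. The calcineurin regulator Rcan2 stood at 302 CPM in 3xTg and 253 in WT, with ratios of -0.22 and 0.64 in the runs. Of 17 other enzymes and pumps regulated by calmodulin 6 were expressed and none differed by 1.5-fold, though the median of their log2 ratios was -0.23.

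Among the other EF-hand proteins 7 were expressed and 3 were at least 1.5-fold higher in 3xTg, where 9.88% of all expressed genes were. These were Calb2 (calretinin), with a log2 ratio of 0.89, Ncald (neurocalcin delta), with 0.86, and Calb1 (calbindin), with 0.63. They were higher in both the lower and the upper runs, by 0.94 and 1.33 for Calb2, 0.87 and 0.73 for Ncald and 0.40 and 0.98 for Calb1. The list's median was 0.35, with Hpca lowest at -0.40, although Hpca was at 0.32 within the lower and 0.01 within the upper runs. Of the SK channel complex 4 genes of 9 were expressed, and Ppp2r1a, the scaffold subunit of protein phosphatase 2A, was at least 1.5-fold higher in 3xTg with a log2 ratio of 0.60, and of 0.22 and 0.95 in the runs. Csnk2a1, a catalytic subunit of casein kinase 2, stood at 79.7 CPM in 3xTg against 57.3 in WT. Its log2 ratio of 0.48 was 0.90 in the lower and 0.20 in the upper runs. Its mean difference was 1.25, or 0.77 beyond the median gene. Csnk2b, the regulatory subunit, was at 107 CPM in both genotypes.

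By the mean over cells relative to the median gene, where 25.9% of the expressed genes were at least 1.5-fold higher in 3xTg and 23.9% lower, the lists gave other counts. None of the modulators and none of the kinase cascade passed in either direction. Of the list of calcineurin and NFAT family genes Rcan2 was higher, by 0.81, and Nfat5 lower, at -1.04. Of the enzymes and pumps Myo5a, a myosin that moves vesicles, was higher, by 0.83, while Eef2k, the kinase of elongation factor 2, was lower, at -0.76, and so was the calcium pump gene Atp2b3, at -0.78. Of the other EF-hand proteins 4 were higher and none lower, namely Calb2, Ncald, Calb1 and also Hpcal4, by 0.96, though the sums of Hpcal4 had a log2 ratio of -0.25. Of the SK channel complex Ppp2r1a was higher by 0.83 and Csnk2a1 by the value given above, and the channel gene Kcnn1 was lower, at -0.74. By its sums Kcnn1 was slightly higher in 3xTg, at 6.10 CPM against 5.58, with log2 ratios of 0.52 and -0.49 in the lower and the upper runs. The ratios of the sums also changed sign between the runs for Myo5a, from 0.91 to -0.27, for Eef2k, from 0.10 to -0.42, and for Atp2b3, from 0.68 to -1.57. The listed channel genes Kcnn2 and Kcnn3 did not count as expressed. Kcnn3 stood at 52.3 CPM in 3xTg and 58.4 in WT, with a mean difference of 0.39 beyond the median gene. Kcnn2 was at 9.45 and 16.4 CPM, with -1.11.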

How the data were processed

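Per the labels, single dopamine neurons were collected by Patch-seq, libraries were made from polyadenylated RNA with 28 cycles of PCR, and no molecular identifiers are named. The authors aligned reads to the mm10 RefSeq transcriptome in Strand NGS and removed duplicates, and deposited estimated counts per gene and log2 values normalized with DESeq2. Fractional values (tolerance 0.001) made up 55.3% of the counts above 0. The log2 values served as an alternative.

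Counts were scaled by median-of-ratios size factors from 787 genes, and means were taken of log2(normalized count + 1), so differences of low genes are understated. For sums, counts were rounded per cell and given as CPM. The labels name no mouse and each genotype was 1 sample. Intervals are exact Poisson or Clopper-Pearson at 95%. Calculations used Python 3.11.15, numpy 2.4.6, scipy 1.17.1 and edgeR 4.0.16 (TMM alone) and were tested on simulated data. Lengths and coding sequences came from GENCODE M21, and 3747 of 3988 expressed genes had a length.

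The members and gene lists were chosen with earlier results of these data known. Genes named within a list were those with the lowest or highest ratio or the largest sums among its expressed genes, and likeness gave the 2 expressed genes with the highest rho. Csnk2a1, Ppp3cc, Kcnn2, Kcnn3 and the list genes past 1.5-fold by the mean over cells were named outside this rule after their values were seen. Of the lists, 1 gene is not reported here. Alternatives covered scaling, pseudocounts, thinning, cells with another marker, the lower and upper runs of label numbers and single cells left out, and 10 counts as a minimum for detection and the balance of kinase to phosphatase were chosen after seeing the data.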

Additional observations from a re-analysis of the deposited data

How the results depend on the processing

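With 1 sample per genotype no alternative was tested, and a value counts as moved where it shifted by more than its counting interval. The median of the members by the mean over cells, 0.70, stayed above 0 throughout. It was 1.02 with a pseudocount of 0.1 and 0.58 with one of 10, 0.58 after thinning, 0.50 over cells with a count, 0.49 in the lower runs and 1.2 in the upper runs, 0.56 with genes detected as a term and 0.59 by medians over cells, and 0.61 to 0.85 with single cells left out. By the summed counts, 0.08, it was -0.066 in the lower runs and 0.32 in the upper runs, and 0.021 to 0.20 with single cells left out. The number of members at least 1.5-fold higher in 3xTg by the mean over cells relative to the median gene, 2, became 1 with a pseudocount of 10, after thinning or at a fold of 2, 3 with a pseudocount of 0.1 (Ppp3cb added) or with genes detected as a term (Calm2 added), 5 between the upper runs, 4 against all genes with a count, and 1 to 3 with single cells left out. Where it stayed at 2 the members could differ, being Calm3 and Camk2a between the lower runs, Camk2a and Ppp3r1 over cells with a count, Camk2a and Ppp3cb by medians over cells and Camk2a and Camk2d without cells with another marker. The number lower by that measure, 0, became 1 over cells with a count, between the lower runs and with genes detected as a term. By the summed counts, the number higher, 0, became 1 without cells with another marker, between the lower runs, with sums of normalized counts and at most with single cells left out (0 to 1), and 2 between the upper runs, and the number lower, 0, became 1 without cells with another marker, between the lower runs, between the upper runs and with sums of normalized counts. No paired analysis was possible because the genotypes share no replicate numbers. The cause of these shifts was not tested. Ppp3cb and Camk2g missed the filter on low values.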

Other observations

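Below the filter on low values, some genes of the lists differed more than any member, and 4 of them are given here, picked after their values were seen. Camkv, a kinase-like protein that binds calmodulin but has no kinase activity, had a count in 24 of 33 3xTg cells and 12 of 35 WT cells, with 85.8 and 26.6 CPM. Its log2 ratio was 2.59 in the lower runs of label numbers and 0.71 in the upper runs. Nfatc2, a transcription factor gene whose protein calcineurin dephosphorylates, stood at 35.8 CPM in 3xTg and 10.8 in WT, with ratios of 2.95 and 0.24 in the runs. Rcan3, a calcineurin regulator, was at 74.7 and 44.6 CPM, with ratios of 2.49 and 0.11. Rcan1, whose product inhibits calcineurin, stood at 29.1 CPM in 3xTg and 153 in WT although 14 cells of each genotype had a count, and its ratio was -3.66 in the lower and 0.04 in the upper runs. For Nfatc2, Rcan1 and Rcan3 the difference between the genotypes was therefore far larger in the lower runs.

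Within single cells, the ratio of CaMKII to calcineurin counts was spread more widely in WT than in 3xTg. The log2 ratio of the summed normalized counts of the 4 CaMKII genes to those of the calcineurin genes, plus 1 on each side, had a mean of 0.23 ± 1.57 (SD over 33 cells) in 3xTg and 0.03 ± 3.35 (SD over 35 cells) in WT. It ran from -2.90 to 7.11 in 3xTg and from -9.81 to 8.13 in WT, and the medians were 0.13 and 0.06. The WT extremes were cells 6 and 11, with 3944 and 3770 genes detected, and without them the WT mean was 0.09 ± 2.62 (SD over 33 cells). In the lower runs the mean was 0.24 in 3xTg and 0.55 in WT, the opposite order, and in the upper runs 0.21 and 0.15.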
